A study of Homo sapiens with 6 samples.

Results

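The SRSF, HNRNP and SNRP gene families, which supply much of the splicing machinery, were measured as mRNA in T24 cells that overexpressed RNF112. Members were all rows of the count table whose symbol began with SRSF and a digit, with HNRNP, or with SNRP. The rule found 48 of 23152 rows, of which 12 were SRSF, 23 HNRNP and 13 SNRP genes. It used the names alone and no measured value. Of the 48 members, 43 had enough reads to be tested, 11 SRSF, 21 HNRNP and 11 SNRP genes.

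T24 is an established line of human bladder cancer cells, and RNF112 is an E3 ubiquitin ligase, an enzyme that marks other proteins with ubiquitin. Poly(A) RNA was sequenced from 3 samples that carried the vector alone (vector) and from 3 samples made to overexpress RNF112 (oeRNF112), so every sample held a construct and the groups differed by the RNF112 insert. The labels' treatment text speaks of siRNA transfection, whereas their titles and the study's methods describe overexpression. Whether the sequenced cells held the construct transiently or stably, and for how long, is not given in the sources used here. Nothing states that the 3 samples of a group were separate cultures, so p-values measure the spread between these samples. The comparison asks how the mRNAs of these families differed between oeRNF112 and vector.

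Splicing removes introns from pre-mRNA. Small nuclear ribonucleoproteins do the cutting and joining, and SNRP genes encode their proteins: a ring of Sm proteins shared by the U1, U2, U4 and U5 particles, plus proteins particular to U1 or U2. SR proteins, encoded by SRSF genes, bind exons and mostly favor their inclusion, and hnRNP proteins coat nascent transcripts and often oppose the SR proteins. Many SR and hnRNP genes tune their own mRNA through an exon that routes it to decay, so mRNA and protein need not move together.

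The libraries held between 40029547 and 41259569 counted reads. RNF112 counts were 27, 19 and 24 in vector and 29753, 36963 and 31712 in oeRNF112, as the labels state. The 100 most abundant genes took 20.6% to 22.9% of the reads in vector and 17.98% to 19.6% in oeRNF112, and scaling by trimmed means (TMM) gave factors of 0.957 to 0.988 and 1.01 to 1.05. The first principal component, with 55.9% of the variance, separated the groups. The second, with 18.8%, set vector 2 and oeRNF112 3 apart from vector 3 and oeRNF112 2, a split that returns below with the SNRP genes. Of 14 urothelial and epithelial markers, 12 had rows and 8 had a mean of at least 100 counts, while CDH1, UPK1A, UPK2 and UPK3A had at most 20. Their summed counts were 145048 to 179278 in vector and 118178 to 136854 in oeRNF112, most of them from KRT7, KRT8 and KRT18. Within this list KRT7 (-0.48, adjusted p = 0.0226 by edgeR), KRT18 (-0.51, 0.0130) and FOXA1 (-1.08, 0.00132) fell and EPCAM rose (0.84, 0.0208), while KRT8, KRT19, GATA3 and PPARG were not called. The mesenchymal markers VIM and CDH2 summed to 165495 to 184602 counts in vector and 143142 to 174860 in oeRNF112, with CDH2 lower (-0.44, adjusted p = 0.0252 by edgeR) and VIM not called (-0.21, 0.250). The part of these markers in the results below was not tested. Leukocyte markers summed to 89 to 128 counts and endothelial markers to 3 to 18. Fibroblast markers summed to 264 to 364 in vector and 401 to 421 in oeRNF112, nearly all of it COL1A1, since COL1A2, DCN and LUM had at most 3 counts.

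Promoter sequences from RefSeq (GRCh38.p14) were available for 39 of the 43 tested members, and 4 short motifs were counted in the 250 bases before each annotated start. A gene counted if any of its starts had the motif. The motifs were chosen after the data had been seen. CCGGAAG, the core bound by ETS factors, was searched on both strands. It occurred in 7 of 10 SNRP promoters (70%), in 3 of 19 HNRNP (15.8%), in 2 of 10 SRSF and in 18.3% of the 11415 tested genes with a promoter. For 5 of these SNRP genes the window around the motif lies wholly before the outermost start of the gene. These windows are printed 5′ to 3′ on the strand of the gene, with the motif or its reverse complement CTTCCGG in capitals, because this core was found more often in SNRP promoters than in those of the other families.

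SNRPA1 (chr15:101295338-101295378, minus strand): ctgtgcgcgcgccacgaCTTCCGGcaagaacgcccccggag
SNRPB (chr20:2470807-2470847, minus strand): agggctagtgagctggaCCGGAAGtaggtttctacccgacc
SNRPB2 (chr20:16729914-16729954, plus strand): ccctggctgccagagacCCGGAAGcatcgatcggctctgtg
SNRPC (chr6:34757274-34757314, plus strand): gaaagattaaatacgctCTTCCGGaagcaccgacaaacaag
SNRPD2 (chr19:45692356-45692396, minus strand): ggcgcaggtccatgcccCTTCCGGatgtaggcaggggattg

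In SNRPC the motif and its reverse complement overlap, and only the first of them is in capitals. The core lay between 35 bases (SNRPB) and 208 bases (SNRPC) before the start. CACGTG, the palindromic E-box, occurred in 5 of 19 HNRNP promoters (26.3%), in 0 of 10 SRSF, in 0 of 10 SNRP and in 10.9% of tested genes. The windows of 4 of these genes lie wholly before the outermost start and are shown with the E-box in capitals, because among the 3 families the E-box was found in HNRNP promoters alone.

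HNRNPA3 (chr2:177212706-177212745, plus strand): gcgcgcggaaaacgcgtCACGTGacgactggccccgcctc
HNRNPD (chr4:82373996-82374035, minus strand): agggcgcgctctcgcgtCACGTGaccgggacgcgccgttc
HNRNPH3 (chr10:68331626-68331665, plus strand): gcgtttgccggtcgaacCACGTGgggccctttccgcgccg
HNRNPM (chr19:8444916-8444955, plus strand): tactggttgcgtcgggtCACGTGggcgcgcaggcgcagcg

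CCAAT, searched on both strands, occurred in 15 of 19 HNRNP promoters (78.9%), 4 of 10 SNRP and 2 of 10 SRSF, against 41.1% of tested genes. TATAAA, searched on the gene's strand, occurred in 3 of 19 HNRNP, 2 of 10 SRSF, 0 of 10 SNRP and 5.11% of tested genes. SRSF3, whose mRNA is described below, had CCAAT on either strand once and TATAAA once within the 80 bases before its start (capitals).

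SRSF3 (chr6:36594282-36594361, plus strand): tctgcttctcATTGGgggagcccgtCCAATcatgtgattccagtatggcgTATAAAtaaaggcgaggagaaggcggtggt

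A match is a string of letters and not a bound site. Levels were read per gene length from the deposited RPKM values, which divide a count by gene length and by library total. HNRNPA1, the abundant A/B-type hnRNP that often silences exons, had the highest level of all members, 346 ± 11.6 RPKM in vector and 296 ± 17.3 in oeRNF112 (SD, n = 3 each). HNRNPK, a KH-domain protein that binds C-rich RNA, followed at 268 RPKM over all 6 samples, and HNRNPA2B1, a close relative of HNRNPA1, at 237.

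Among SNRP genes the highest level was that of SNRPB, which encodes the Sm proteins B and B′, at 274 RPKM, ahead of SNRPD2 at 166 and SNRPF at 132, both Sm ring subunits. Among SRSF genes SRSF9 led at 144 RPKM. SRSF5 followed at 88.4 and SRSF2 at 87.5, levels closer together than the spread within a group, which was 7.35 RPKM (SD) for SRSF5 and 5.22 for SRSF2 in vector. The lowest tested members were HNRNPA1L2 at 6.09, SRSF8 at 6.56 and HNRNPLL at 6.90 RPKM. Summed over its rows, the HNRNP family took 0.773% to 0.778% of all reads in vector and 0.738% to 0.769% in oeRNF112. SRSF genes took 0.202% to 0.211% and 0.196% to 0.209%, and SNRP genes 0.121% to 0.154% and 0.120% to 0.146%, so the sums of these latter families overlapped between groups.

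Counts were compared with the quasi-likelihood test of edgeR over all 14467 genes tested, and a gene was called at a Benjamini-Hochberg adjusted p under 0.05. Of the 43 members, 4 were called, all lower in oeRNF112: SRSF8, SRSF3, HNRNPUL1 and HNRNPA1. That is 9.30% of members, against 18.1% of all tested genes called in either direction, 9.97% higher and 8.14% lower. Members are abundant, and of the 7210 genes with a mean count of at least 1000, 9.94% were called lower. The share of called members was therefore near the background for a fall and below it for either direction. Since RNA came from whole cultures, fewer cells of a type and less RNA per cell cannot be told apart.

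No member reached a log2 fold change of 0.5 in either direction. Of the 39 members not called, 34 had 95% intervals that stayed within 0.5 on the log2 scale on both sides and all 39 within 1. The outermost bounds were -0.69 for SNRPD2 and 0.56 for SRSF11. At an unadjusted p under 0.05, 13 members were lower and 2 higher, 34.9% of members against 33.1% of all tested genes.

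The fitted values leaned to one side. Of the 43 members, 34 had a fitted log2 fold change below 0 (79.1%), against 49.6% of all genes tested, and 35 lay below the median of all genes, which was 0.0027. With library totals in place of TMM the median of all genes rose to 0.096, and 25 members lay below 0 but again 35 below that median. The median was -0.12 for HNRNP, -0.10 for SNRP and -0.075 for SRSF genes with TMM, and -0.025, -0.0071 and 0.019 with library totals, where the SRSF median changed sign. Library totals called SRSF3, SRSF8 and HNRNPLL, with 4.56% of all genes lower and 14.0% higher. In 16 members every oeRNF112 sample lay below every vector sample (37.2% of members against 17.9% of all tested genes), and in 1, HNRNPLL, every one lay above (18.9% of all genes). The 16 were 10 HNRNP, 5 SRSF and 1 SNRP genes. These levels were TMM-scaled CPM, and the separation depended in part on that scaling. In RPKM, which is scaled by library totals, the groups overlapped for HNRNPA0, HNRNPA2B1, HNRNPA3, HNRNPK, HNRNPM, HNRNPUL2 and SRSF1. They stayed apart for the rest of the 16. Members are abundant, and the share of all genes without overlap was not computed for abundant genes alone or for RPKM. Over all genes, groups did not overlap in 36.8%, both directions together. Genes of 1 family are not independent replicates of each other.

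SRSF genes gave 2 of 11 called, both lower (18.2%, against 8.14% of all tested genes called lower), and the family split by gene. SRSF8 is an SR protein related to SRSF2 and encoded by a gene of its own on chromosome 11. Its level, in TMM-scaled CPM (counts scaled to a common library size), was 33.6, 34.4 and 31.3 in vector 1 to 3 and 25.6, 24.01 and 21.6 in oeRNF112 1 to 3. Every oeRNF112 sample was below every vector sample. SRSF8 fell by 0.48 on the log2 scale (SE 0.0991, 95% interval -0.70 to -0.26, adjusted p = 0.0102 by edgeR), a change of -28.3%. Without vector 1 its value was -0.46 with an adjusted p of 0.0604, and it stayed called without any other single sample.

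SRSF3, the smallest canonical SR protein, links splicing with mRNA export and 3′ end choice, and its promoter stretch is printed above. It measured 401, 348 and 403 CPM in vector and 296, 315 and 268 in oeRNF112. The groups did not overlap, and vector 2 and oeRNF112 2 lay closest to each other. SRSF3 fell by 0.39 (SE 0.0971, 95% interval -0.61 to -0.17, adjusted p = 0.0222 by edgeR), a change of -23.7%. The call did not hold without vector 1 (-0.35, adjusted p = 0.110), vector 3 (-0.35, 0.0604), oeRNF112 1 (-0.40, 0.0839) or oeRNF112 3 (-0.33, 0.0825).

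SRSF6 and SRSF2 came next without being called. SRSF6, an SR protein with a pair of RNA-binding domains, had 229, 237 and 238 CPM in vector and 205, 189 and 200.1 in oeRNF112, a log2 fold change of -0.25 with an adjusted p of 0.0557 by edgeR. SRSF2, which acts in both constitutive and regulated splicing, had 268, 279 and 301 CPM in vector and 248, 229 and 233 in oeRNF112, a log2 fold change of -0.26 with an adjusted p of 0.0611 by edgeR. In both genes the groups did not overlap, and DESeq2, which called 9.53% of all genes lower, called both (adjusted p = 0.0289 and 0.0342). SRSF2 shares its locus with MFSD11 and the strand setting of the counting is not given in the sources used here, so some reads of such a pair could have been counted to either gene.

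SRSF1, the founding SR protein, had a log2 fold change of -0.17 with an adjusted p of 0.215 by edgeR. SRSF10, SRSF9, SRSF5, SRSF4 and SRSF7 had values between -0.075 and 0.064. SRSF11 had the highest value of the family. It measured 143, 181 and 149.7 CPM in vector and 191, 169 and 219 in oeRNF112, so the groups overlapped, through vector 2 and oeRNF112 2. Its log2 fold change was 0.29 (95% interval 0.020 to 0.56) with an adjusted p of 0.126 by edgeR, and it was called higher only when vector 2 was left out (0.40, adjusted p = 0.0266). By structure, the 5 tested SR proteins with a pair of RNA-binding domains had a median of 0.0033, with SRSF6 the lowest. The 6 others had a median of -0.17, with SRSF3 and SRSF8 lower.

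HNRNP genes gave 2 of 21 called, both lower (9.52%, against 8.14% of all tested genes called lower). HNRNPUL1 is a relative of HNRNPU that takes part in RNA processing and the DNA damage response. It measured 268, 284 and 252 CPM in vector and 211, 200.1 and 217 in oeRNF112. Its groups lay well apart, with the lowest vector sample above the highest oeRNF112 sample by more than the range of the oeRNF112 group. HNRNPUL1 fell by 0.35 (SE 0.0844, 95% interval -0.54 to -0.17, adjusted p = 0.0184 by edgeR), a change of -21.8%. The call was lost with library totals (-0.26, adjusted p = 0.0684), and without vector 1 (-0.34, 0.0926), oeRNF112 1 (-0.36, 0.0778) or oeRNF112 2 (-0.31, 0.0625). A lncRNA, LOC105372401, and a pseudogene, RN7SL34P, overlap the gene.

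HNRNPA1 measured 1375, 1259 and 1379 CPM in vector and 1132, 1090.4 and 994 in oeRNF112. No sample crossed between groups. HNRNPA1 fell by 0.32 (SE 0.0926, 95% interval -0.53 to -0.11, adjusted p = 0.0398 by edgeR), a change of -19.8%. This call was the weakest of the 4: library totals gave -0.23 (adjusted p = 0.0822), and of the 6 fits that left out 1 sample it passed only the one without vector 2 (-0.36, 0.0275). The other 5 gave -0.29 without vector 1 (0.165), -0.30 without vector 3 (0.102), -0.36 without oeRNF112 1 (0.0970), -0.32 without oeRNF112 2 (0.0657) and -0.27 without oeRNF112 3 (0.128). RefSeq names 75 HNRNPA1 pseudogenes, so part of the reads from this gene may have been split among copies or left uncounted. Its retrocopies HNRNPA1L3 and HNRNPA1L2, which are counted as genes of their own, had log2 fold changes of -0.28 (adjusted p = 0.150 by edgeR) and -0.11, at 8.79 and 6.09 RPKM.

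The rest of the A/B group stayed close to 0. HNRNPA2B1 and HNRNPA0 each had a log2 fold change of -0.12, HNRNPA3 of -0.10 and HNRNPAB of 0.10, and the group of 7 had a median of -0.12. HNRNPA2B1 shows how small the differences were: its 936, 866 and 943 CPM in vector and 856, 833 and 836 in oeRNF112 did not overlap, yet the lowest vector and highest oeRNF112 values were 866 and 856. HNRNPC, which binds uridine tracts and packages nascent RNA, had a value of -0.19. HNRNPD (AUF1), known for binding AU-rich elements, and its relative HNRNPDL had -0.12 and -0.024. The F/H group, which binds G-tracts, was the only subgroup with a positive median among HNRNP genes: HNRNPH3 had 0.11, HNRNPH1 0.093 and HNRNPF -0.023, with a median of 0.093.

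The K, L, M, R and U group of 8 genes had the lowest median, -0.19. After HNRNPUL1 came HNRNPR, a relative of SYNCRIP, with 229.7, 232 and 211 CPM in vector and 191, 183 and 189.5 in oeRNF112. These groups did not overlap, and the log2 fold change was -0.26 with an adjusted p of 0.0535 by edgeR and 0.0291 by DESeq2. HNRNPL, a regulator of exons through CA repeats, had -0.22 (0.0953), HNRNPM -0.20 (0.134), HNRNPUL2, which shares its locus with the readthrough transcript HNRNPUL2-BSCL2, -0.18, HNRNPK -0.16 and HNRNPU, a scaffold protein of chromatin, -0.076. HNRNPLL, the close relative of HNRNPL that controls CD45 splicing in lymphocytes, went the other way. It measured 30.2, 30.7 and 27.7 CPM in vector and 33.4, 38.0 and 34.0 in oeRNF112, without overlap. Its log2 fold change was 0.25 (95% interval 0.038 to 0.46) with an adjusted p of 0.0971 by edgeR, and 0.34 with an adjusted p of 0.0342 with library totals, where more genes were called higher than lower. The difference between HNRNPLL and HNRNPL was not tested.

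The 5 HNRNP genes with an E-box were HNRNPA3, HNRNPD, HNRNPDL, HNRNPH3 and HNRNPM, whose log2 fold changes ran from -0.20 to 0.11 and none of which was called. The called genes SRSF3, SRSF8 and HNRNPUL1 had CCAAT and no E-box in the window, and SRSF3 and SRSF8 were the 2 SRSF genes with CCAAT. Over all tested members with a promoter, 21 of 39 had CCAAT. Among the 21, HNRNPLL (0.25), HNRNPH3 (0.11) and HNRNPAB (0.10) lay above 0 and the others below 0. Most members lay below 0 with or without the motif: 34 of all 43 tested members (79.1%) and 17 of the 21 tested HNRNP genes. Apart from SRSF3, SRSF8 and HNRNPUL1, none of the 21 was called. Whether the letters and the fold changes are related was not tested. HNRNPA1 was not matched to a promoter.

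SNRP genes had no call among 11 with edgeR, 0 with DESeq2, and 3 at an unadjusted p under 0.05 by edgeR, all lower: SNRPD2, SNRPD3 and SNRPC. SNRPD2, an Sm ring subunit, had the lowest fitted value of the family. It measured 191, 145.7 and 198 CPM in vector and 132, 165 and 118 in oeRNF112. The groups overlapped because vector 2 was low and oeRNF112 2 high. Its log2 fold change was -0.36 (95% interval -0.69 to -0.037) with an adjusted p of 0.114 by edgeR. It was called lower without vector 2 (-0.49, adjusted p = 0.0153) and without oeRNF112 2 (-0.50, 0.0370).

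SNRPD3, whose product pairs with the B protein in the Sm ring, was the only SNRP gene whose groups did not overlap, at 161, 141 and 165 CPM in vector and 134, 137 and 128 in oeRNF112. Its log2 fold change was -0.23 with an adjusted p of 0.0984 by edgeR, and -0.30 with an adjusted p of 0.0361 without vector 2. SNRPC, a zinc-finger protein of the U1 particle that helps it recognize the 5′ splice site, measured 72.1, 58.8 and 82.4 CPM in vector and 55.7, 64.5 and 52.5 in oeRNF112. Its value was -0.30 (adjusted p = 0.136 by edgeR), and -0.43 (0.0192) without vector 2. Those 3 genes were the only SNRP calls in any of the 6 fits that left out a sample, and without vector 2 10.5% of all genes were called lower.

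SNRPB had a log2 fold change of -0.23 (adjusted p = 0.217 by edgeR), with 323, 281 and 359 CPM in vector and 267, 314 and 239 in oeRNF112. SNRPE had -0.17, SNRPF -0.087, SNRPD1 -0.062 and SNRPG -0.053, so the 7 tested Sm genes had a median of -0.17. SNRPG, also an Sm ring subunit, measured 146, 108 and 153 CPM in vector and 127, 157 and 107.7 in oeRNF112. Its highest value was thus in oeRNF112 and its lowest also in oeRNF112. Of the U1 and U2 proteins, SNRPA, which binds U1, had -0.10, the U2 pair SNRPA1 and SNRPB2 had -0.025 and -0.0093, and with SNRPC their median was -0.063.

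The SNRP genes moved together from sample to sample. In all 11, vector 2 was the lowest vector sample, oeRNF112 2 the highest oeRNF112 sample and oeRNF112 3 the lowest. Over all tested genes, 26.6% had both vector 2 lowest and oeRNF112 2 highest, and for HNRNP and SRSF genes this was 6 of 21 and 3 of 11. The median deviation of the SNRP genes from their vector mean was 0.047, -0.19 and 0.18 in vector and -0.13, 0.035 and -0.25 in oeRNF112 (log2). The range within vector thus exceeded the median log2 fold change of the family, -0.10. Without vector 3 that median was -0.0067 and without oeRNF112 3 it was -0.032, whereas without vector 2 it was -0.25 and without oeRNF112 2 -0.19.

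SNRP genes are short. Gene length, recovered from the counts and RPKM, had a median of 1277 bases for tested SNRP genes, 3744 for HNRNP, 4228 for SRSF and 3982 for all tested genes. The same order of samples appeared in short genes at large. The 763 tested genes under 1000 bases had median deviations of 0.047, -0.21 and 0.16 in vector and -0.18, 0.016 and -0.32 in oeRNF112. The 7195 genes of 4000 bases and over had -0.0094, 0.098 and -0.080, then 0.061, -0.014 and 0.14, opposite in sign in each of the 6 samples. Of the 11 SNRP genes, 9 were under 2500 bases. SNRPD1 at 4858 and SNRPD3 at 3466 bases showed the same order of samples. This length is a single value per gene, and the length of the mRNA made in these cells was not measured.

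An alternative chosen after this was seen removed a smooth trend of log2 deviation on gene length from each sample. It called 12 members lower and 0 higher by edgeR (4 higher at an unadjusted p under 0.05), 27.9% of members against 28.6% of all genes called in either direction and 13.9% called lower. The 12 were SRSF1, SRSF2, SRSF3, SRSF6, SRSF8, HNRNPA1, HNRNPL, HNRNPM, HNRNPR, HNRNPUL1, SNRPD2 (-0.22, adjusted p = 0.0403 by edgeR) and SNRPD3 (-0.22, 0.0299). In this fit 6 of 11 SNRP genes lay below 0, against 11 before, and the medians were -0.10 for SRSF, -0.13 for HNRNP and -0.074 for SNRP genes.

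The remaining 5 members could not be tested. SRSF12 had counts of 0, 0 and 0 in vector and 1, 0 and 0 in oeRNF112. HNRNPH2 had 2, 2 and 1 in vector and 1, 4 and 1 in oeRNF112. It shares its locus with the readthrough gene RPL36A-HNRNPH2, and reads that fit both could have been left out of either. SNRPN, the Sm gene of neurons expressed from the paternal allele, had 3, 4 and 8 in vector and 15, 5 and 8 in oeRNF112, and it shares its locus with SNURF and SNHG14. The divergent lncRNAs HNRNPD-DT and SNRPF-DT, which match the rule by name but encode no splicing factor, had at most 18 and 2 counts in any sample. Among tested members, SRSF4, SRSF9, HNRNPAB, HNRNPH3, HNRNPK, HNRNPU and SNRPD3 also overlap another protein-coding gene. Copies named as pseudogenes exist for SNRPC and SNRPG (20 each), HNRNPA3 (17), SNRPE (11) and HNRNPC (9). SRSF3, HNRNPK and HNRNPDL have 5 each, SNRPF has 4, and several other members have fewer. The counts of all these members carry the same uncertainty.

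Beyond the families, 117 genes on 7 lists cover the proteins that modify, assemble or work beside them, and 113 were tested. Of these, 3 were higher and 9 lower in oeRNF112, and 77 had fitted values below 0, with a median of -0.095. With library totals 6 were higher and 4 lower, with a median of -0.0011. The share of called genes, 12 of 113, was below the 18.1% of all tested genes.

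SR proteins are switched by phosphorylation. Of 9 SR protein kinases and their like, CLK1, a nuclear kinase that releases SR proteins from speckles, was higher by 0.29 (counts of 2712, 2905 and 2643 in vector and 3755, 3486 and 3425 in oeRNF112, adjusted p = 0.0412 by edgeR). Of 19 SR-related proteins and coactivators, U2AF2, the subunit that binds the polypyrimidine tract, fell by 0.43. It had counts of 6665, 6429 and 6748 in vector and 5210, 5332 and 5074 in oeRNF112, with an adjusted p of 0.00703 by edgeR.

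Sm proteins are loaded onto snRNA by the SMN complex. Of 18 assembly genes, GEMIN8 fell by 0.58 (counts of 525, 548 and 532, then 373, 410 and 349, adjusted p = 0.00796 by edgeR) and GEMIN4 by 0.33 (adjusted p = 0.0317). The median of the list was -0.18. Of 7 genes named SNRNP, SNRNP25 of the minor spliceosome fell by 0.47 (adjusted p = 0.0176 by edgeR) and SNRNP200, the U5 helicase, by 0.36 (0.0482), with a list median of -0.25.

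A list of 19 genes covers proteins of the U2, U5 and U4/U6 particles. It also holds PRPF19, CDC5L and PRPF38A, which are not core proteins of these particles. Of the 19, 17 lay below 0, against 49.6% of all tested genes. The 3 called genes were all lower, against 8.14% of all tested genes, and were all components of U5 or the tri-snRNP. PRPF31 fell by 0.42 (adjusted p = 0.0182 by edgeR), EFTUD2 by 0.28 (0.0320) and PRPF6 by 0.30 (0.0379). Of 10 LSm proteins, relatives of the Sm proteins, LSM7 of the ring on U6 fell by 0.52 (adjusted p = 0.0411 by edgeR). The medians were -0.12 for both lists.

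Among 31 tested other hnRNP proteins and splicing regulators, the 2 called genes were higher. NOVA2, a neuronal splicing regulator, had 3, 5 and 3 counts in vector and 23, 11 and 16 in oeRNF112. It passed the filter on low counts through oeRNF112 alone and was not tested when at least 10 counts were required in every sample, so its call, counted above, is given without a fold change. ESRP1, which sets epithelial splicing patterns, had 75, 49 and 42 and then 100, 93 and 119 (log2 fold change 0.83, adjusted p = 0.0438 by edgeR). RALYL, PCBP3, KHDRBS2 and NOVA1 had too few reads to test.

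Of these 12 calls, those of GEMIN4, SNRNP200, EFTUD2, PRPF6 and LSM7 were lost with library totals. Without a filter on low counts those of CLK1 (adjusted p = 0.0634 by edgeR), EFTUD2 (0.0562) and PRPF6 (0.0513) were lost, and with at least 10 counts in every sample that of SNRNP200 (0.0535). U2AF2 and GEMIN8 were called in all 6 fits that left out 1 sample. They were the only called genes of the lists without oeRNF112 1 or without oeRNF112 3, and ESRP1 joined them without vector 1. In these 3 fits 8.59%, 9.84% and 7.18% of all genes were called. Without vector 3, 5 of 113 list genes were called, against 13.1% of all genes. Without vector 2 and without oeRNF112 2, 21 and 11 of 113 were called, against 23.0% and 15.9% of all genes.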

How the data were processed

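Stranded mRNA libraries of 3 vector and 3 oeRNF112 samples of T24 cells were sequenced. The authors deposited raw read counts for each gene and, in a second table, RPKM. In all 23152 rows the RPKM equaled the count divided by the library total and a single gene length within 0.1%, and that length was used as the gene length. The submitters' processing notes name Trimmomatic 0.36, featureCounts, Subread 1.5.1 and GRCh38. The aligner, the annotation and the strand setting are not given in the sources used here.

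Counts were fitted in 1 model over all genes with edgeR 4.0.16 in R 4.3.3 (filterByExpr, TMM factors, quasi-likelihood test, Benjamini-Hochberg adjustment over the 14467 genes tested). CPM values were scaled by TMM. Intervals are 95% intervals of the fit. Alternatives were DESeq2 1.42.0, its size factors within edgeR, library totals, other filters, a replicate block and each sample left out. A length trend (lowess, span 0.3) was added after the data had been seen. The edgeR and DESeq2 fits were tested on simulated data before use. With a log2 fold of 0.5 put into 100 genes, edgeR recovered 38 of them and DESeq2 40. These genes were drawn at random from all tested genes, and the simulated samples shared no trend with gene length. The numbers therefore do not give the recovery among the members, whose median SE was 0.0926 against 0.125 for all tested genes. No 2 samples were copies of each other, since every pair differed by at least 16.7 times the sampling noise (chi-square per degree of freedom).

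The members and all gene lists were chosen with earlier results of these data known. Genes named are RNF112, every member (with full values where called or among the 3 highest in RPKM of its family) and at most the 3 called genes with the smallest p on each further list. Per-sample values of other members were chosen after they had been seen. Gene positions, overlaps and promoters are from RefSeq (GRCh38.p14), where all 48 members were matched by symbol. Each library held at least 40029547 counted reads, and depth and the 3 samples per group both limit the precision.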

Additional observations from a re-analysis of the deposited data

How the results depend on the processing

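Over all genes, 2620 were called (1442 higher, 1178 lower). The direction of the 4 called members held under every alternative that was run. With DESeq2 size factors in edgeR and with the 2 other filters on low counts, the number of called SRSF (2), HNRNP (2) and SNRP (0) genes stayed as it was, while the 12 calls on the further lists became 9 without a filter and 10 with at least 10 counts in every sample. Library totals called 659 genes lower over all genes. Among HNRNP genes they called 0 lower and 1, HNRNPLL, higher. The medians were 0.019 for SRSF and -0.025 for HNRNP genes. DESeq2 called 3134 of 15514 genes over all (20.2%), 1656 higher and 1478 lower. Among them were 4 SRSF, 3 HNRNP and 0 SNRP genes and 19 of 115 tested genes on the further lists. Removal of the length trend, chosen after seeing the data, called 4132 genes (2012 lower), 5 SRSF, 5 HNRNP and 2 SNRP genes and 29 on the further lists. The cause of these shifts was not tested.

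With the replicate number as a block, 876 genes were called (618 higher, 258 lower), and 0 SRSF, 0 HNRNP and 0 SNRP genes and 0 on the further lists by edgeR, with 4 members at an unadjusted p under 0.05, all lower, and 13 genes of the further lists. The adjusted p was 0.0712 for SRSF8, 0.141 for SRSF3, 0.152 for HNRNPUL1 and 0.215 for HNRNPA1. Deviations of samples with the same number correlated at -0.116, -0.363 and -0.296. The split of samples along the second principal component enters these values, so they cannot show whether equal numbers mark a shared culture or batch. The labels do not state it, and it was not tested.

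Leaving out each sample in turn gave 1061 to 3387 called genes (7.18% to 23.0% of all tested genes), 702 to 1841 higher and 359 to 1546 lower. It gave 0 to 3 SRSF, 0 to 2 HNRNP and 0 to 3 SNRP genes called, and 2 to 21 on the further lists. The medians ran from -0.11 to -0.039 for SRSF, from -0.16 to -0.097 for HNRNP and from -0.25 to -0.0067 for SNRP genes. The lowest count of genes came without vector 1, where no SRSF, HNRNP or SNRP gene was called by edgeR and 7 had an unadjusted p under 0.05, and the highest without vector 2.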
